A study of Homo sapiens with 15 samples.

Results

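FOXD2, HMX2 and SNAI3 are 3 transcription factor genes among the 13056 genes for which use of the distal poly(A) site was estimated in HEK293T cells, a human embryonic kidney line. They were chosen from the measured values themselves, as genes with a shift toward the proximal poly(A) site, and each was found by its symbol in the deposited table. The comparison that chose them is not recorded, so every difference of the 3 genes from the control hairpin is given as a description. Where calls of a test are counted for them, this is only to set them beside all tested genes, and nothing rests on these calls. The 15 libraries fall into 7 groups, each named for the short hairpin RNA the cells carried. The control was shControl with 3 libraries, whose genotype is labelled WT, and the knockdowns, with 2 libraries per group, were shPABPN1, shPCBP2, shSF3B4, shU2AF2, shHDAC1 and shZNF384. All groups share the HEK293T line, and the labels do not state how many hairpins or clones stand behind a knockdown, how long it lasted, or whether the replicates were separate cultures. The labels name kits for nuclear RNA and for total RNA and capture of mRNA on oligo(dT) beads. The shControl library names carry the suffix nuc, which the knockdown names lack; if it marks another preparation, preparation and hairpin cannot be told apart.

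Most human genes can end their transcripts at more than 1 poly(A) site. Cleavage is directed by a poly(A) signal, a hexamer a short distance upstream of the cleavage point, and use of an earlier site in the 3' UTR gives a shorter message that lacks some of the binding sites for microRNAs and RNA-binding proteins. FOXD2 encodes a forkhead factor of mesenchyme, including that of the developing kidney. HMX2 encodes an NK-like homeodomain factor needed for the inner ear and parts of the hypothalamus. SNAI3 encodes a zinc finger repressor of the Snail family, related to SNAI1 and SNAI2. Among the genes that were knocked down, PABPN1 coats the growing poly(A) tail and PCBP2 binds C-rich RNA. U2AF2 and SF3B4, a U2 snRNP protein, act at the 3' splice site, HDAC1 is a histone deacetylase and ZNF384 a zinc finger protein.

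The measured quantity was PDUI, an estimate of the fraction of transcripts with the distal end, so that 1 stands for distal use alone. It carries no information on RNA level. The strength of the knockdowns and markers of the cell line could therefore not be checked from these values. Over 11353 genes without a missing entry, the library means of PDUI ran from 0.522 to 0.585. The lowest was shControl replicate 1, while the other shControl libraries stood at 0.56 and 0.561. Read depth is unknown because the table gives fractions without counts.

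The 3' UTRs of the members were read from the GENCODE 29 annotation of GRCh38, the build the submitters' processing notes call hg38. FOXD2 lies on the plus strand of chromosome 1 from 47436017 to 47440691 in a single exon, and its 3' UTR of 1068 bases runs from 47439624 to the end of the gene. Only 217 of 9827 matched coding transcripts, or 2.21%, have a single exon, and the FOXD2 message as annotated has no 3' splice site. HMX2 lies on the plus strand of chromosome 10 from 123148122 to 123150672 in 2 exons, and its 3' UTR of 549 bases starts at 123150124 in the last exon. SNAI3 lies on the minus strand of chromosome 16 from 88677682 to 88686493 in 3 exons, and its 3' UTR of 766 bases spans 88677682 to 88678447 in the last exon. The SNAI3 transcript is version 6 in the deposited table and version 5 in the annotation, so its annotated end may differ from the one the authors used, while FOXD2 and HMX2 had the same version in both.

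All 3 annotated 3' UTRs were below the median length of 1299 bases over the 9827 coding transcripts, of which 43.7%, 25.5% and 34.2% were shorter than FOXD2, HMX2 and SNAI3. GC content was 51.9% in FOXD2, 47.5% in HMX2 and 62.3% in SNAI3, against a median of 42.4%, and 95.5% of the transcripts had a lower GC content than SNAI3. The share of C was 25.3% in FOXD2, 23.9% in HMX2 and 30.9% in SNAI3, against a median of 20.8%. The share of G was likewise above its median of 21.3%, at 26.6%, 23.7% and 31.3%. Whether base content is related to the PDUI values was not tested.

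The main poly(A) signal hexamers, AATAAA or ATTAAA, were searched on the transcript's strand of these 3' UTRs. FOXD2 holds a pair of copies of AATAAA, an early one 251 bases after the stop codon and a terminal one 21 bases before the annotated end. HMX2 and SNAI3 each hold a single copy, 20 and 25 bases before the end. They are shown because they lie just before the annotated distal ends and, for FOXD2, because it is the one member with an early main hexamer. Each is shown as 30 bases of GRCh38 in the direction of the transcript, with the hexamer in capitals; the windows are chr1:47439862-47439891 and chr1:47440659-47440688 on the plus strand, chr10:123150641-123150670 on the plus strand and chr16:88677689-88677718 on the minus strand.
FOXD2 early: tacagtttgagaAATAAAagcaggggggtg
FOXD2 terminal: tggtgtcgattgAATAAAtgtatgtgaact
HMX2 terminal: aaaagaaaaaaaAATAAAacattttaaaca
SNAI3 terminal: cagccgtggggtAATAAAtggtctctgcac

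Because HMX2 and SNAI3 showed no early main hexamer, 10 variants that differ from AATAAA by 1 base were searched next, a choice made after that result was seen. HMX2 holds AAGAAA 103 bases after the stop codon, AATACA at 107, which overlaps it, ACTAAA at 436 and another AAGAAA at 520, beside the terminal signal. SNAI3 holds AATGAA 397 bases after the stop codon, 370 bases before the end. FOXD2 holds AAGAAA at 473, and at 1000 and 1005, where the last pair overlap. The variants of HMX2 at 103 and 436, the latter 114 bases before the end, and that of SNAI3 are shown in the same way, from chr10:123150214-123150243 and chr10:123150547-123150576 on the plus strand and chr16:88678034-88678063 on the minus strand.
HMX2 at 103: tccagaaatatgAAGAAAtacaccatgtgt
HMX2 at 436: ctttggacaattACTAAAttgcttcttttc
SNAI3 at 397: cattgcagcagaAATGAAcagttctgactt

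None of these matches sets the members apart. Of the 9827 transcripts, 91.5% hold a main hexamer, 60.9% hold more than 1, and 60.8% hold one over 100 bases before the end, as FOXD2 does. Among the 2364 transcripts with a 3' UTR of 500 to 1200 bases, a range set after the members' lengths were seen, 49% hold such an early main hexamer. In 40.7% of that range the main hexamer lies near the end only, as in HMX2 and SNAI3, and 84% hold at least 1 of the 10 variants. The deposited table was used here for its PDUI values, so which of these positions the proximal estimates stand for was not tested.

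**Figure D1:**
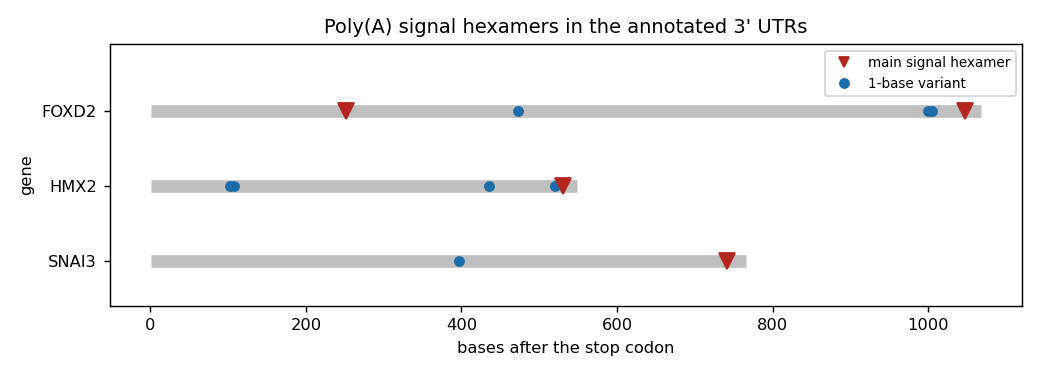
Annotated 3' UTRs of FOXD2, HMX2 and SNAI3 as grey bars, drawn to scale in bases after the stop codon. Red triangles mark AATAAA and blue circles mark the 1-base variants; FOXD2 has a red triangle at 251 as well as at its end, while HMX2 and SNAI3 have theirs near the end.

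FOXD2 had a value in every library. Its PDUI was 0.99, 0.92 and 0.9 in shControl, a mean of 0.937 ± 0.0473 (SD, n = 3), so nearly all of its transcripts were estimated to end at the distal site. It was 0.44 and 0.45 in shPABPN1 and 0.57 and 0.58 in shPCBP2. These 4 libraries were the lowest of the 15, with an estimated split near even between early and late ends, and the replicates of each pair were 0.01 apart.

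In shZNF384 FOXD2 stood at 0.82 and 0.79, below the lowest control library but far above shPABPN1 and shPCBP2. In shHDAC1, shSF3B4 and shU2AF2 it stood at 1 in all 6 libraries, above the highest control value. The order of the groups was thus shPABPN1, shPCBP2, shZNF384, shControl and then the 3 groups at 1, and no neighbours in that order overlapped apart from those 3. The means were 0.445 ± 0.00707 in shPABPN1, 0.575 ± 0.00707 in shPCBP2 and 0.805 ± 0.0212 in shZNF384 (SD, n = 2 each).

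HMX2 was distal in shControl, with 0.92, 0.82 and 0.93 and a mean of 0.89 ± 0.0608 (SD, n = 3). It was lowest in shPABPN1, at 0.15 and 0.23, where most of its transcripts were estimated to end early. In shZNF384 it stood at 0.49 and 0.46, with both libraries just under an even split. In shSF3B4 it stood at 0.64 and 0.65. These 3 groups did not overlap with each other or with shControl.

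HMX2 lacked a value in 1 library each of shHDAC1, shPCBP2 and shU2AF2. The remaining library gave 0.91 in shHDAC1, within the control range, 0.59 in shPCBP2 and 0.72 in shU2AF2, both below the lowest control library. The groups ran upward from shPABPN1 through shZNF384, shPCBP2, shSF3B4 and shU2AF2 to shControl. The places of shPCBP2 and shU2AF2 rest on 1 library each, and shSF3B4 and shPCBP2 were 0.05 or 0.06 apart by library. The means with 2 libraries were 0.19 ± 0.0566 in shPABPN1, 0.475 ± 0.0212 in shZNF384 and 0.645 ± 0.00707 in shSF3B4 (SD, n = 2 each).

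SNAI3 was almost wholly distal in shControl, at 0.98 and 1 with no value in replicate 2, a mean of 0.99 ± 0.0141 (SD, n = 2). It stood at 0.76 and 0.78 in shZNF384, below every other library that had a value. It stood at 1 and 1 in shHDAC1 and at 1 in the single shPABPN1 library with a value, the knockdown in which FOXD2 and HMX2 were lowest. The difference between members in shPABPN1 rests on that 1 library of SNAI3 and was not tested.

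The remaining groups of SNAI3 lay near the control. The values were 0.98 and 0.89 in shPCBP2, 1 and 0.96 in shSF3B4, and 0.95 and 1 in shU2AF2. Only the second shPCBP2 library fell below 0.95, and the ranges of these groups overlapped. In shZNF384 the mean was 0.77 ± 0.0141 (SD, n = 2), so an estimated 77 of each 100 transcripts still ended at the distal site.

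**Figure D2:**
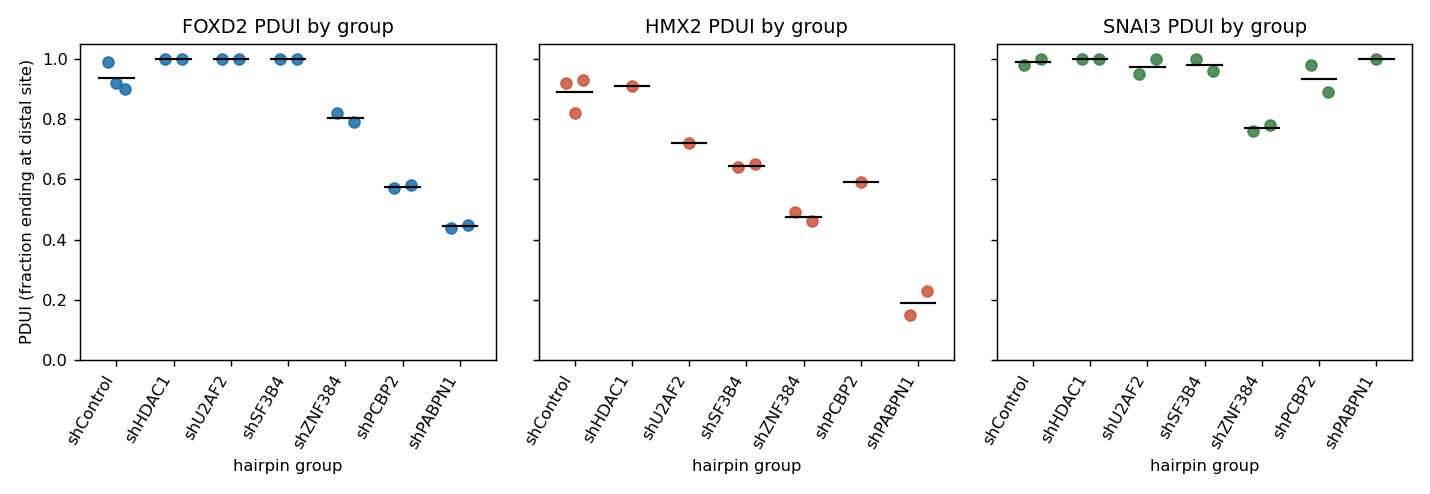
PDUI, the fraction of transcripts ending at the distal site, of FOXD2, HMX2 and SNAI3 by hairpin group, with a point for each library and a bar for the group mean. FOXD2 lies below shControl in shPABPN1, shPCBP2 and shZNF384, HMX2 is lowest in shPABPN1 at 0.15 and 0.23, and SNAI3 leaves the control range by most in shZNF384, at 0.76 and 0.78.

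The differences from shControl were set beside those of every gene tested in the same comparison. They come from 1 limma fit over all libraries, which drops the missing entries, so FOXD2 rested on 15 libraries, SNAI3 on 13 and HMX2 on 12. Standard errors pool the spread of all groups. For FOXD2 that includes shHDAC1, shSF3B4 and shU2AF2, with an SD of 0 at the top of the scale, against 0.0473 in shControl. These groups lower the standard errors and p-values of FOXD2 in every comparison, and shHDAC1 does the same for SNAI3. In shPABPN1 HMX2 was lower by 0.7 (difference -0.7, SE 0.0482), the lowest value among 12278 genes, and FOXD2 differed by -0.492 (SE 0.0242), place 4 from the bottom. The median of all tested genes there was -0.00933, and 90 of each 100 genes, from the 5th to the 95th percentile, lay between -0.16 and 0.16.

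In shPCBP2 the FOXD2 difference was -0.362 (SE 0.0242), place 15 from the bottom of 12434 genes, whose 5th percentile was -0.108. SNAI3 differed there by -0.055 (SE 0.0306), inside that range, and by -0.1 or -0.01 without the first or the second shPCBP2 library. In shSF3B4 HMX2 differed by -0.245 (SE 0.0482), place 122 of 12195, while FOXD2 was higher by 0.0633 and SNAI3 differed by -0.01. A difference of 0.0633 in FOXD2 also held for shHDAC1 and shU2AF2, where each library is at the ceiling of the scale.

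In shZNF384 all 3 members were below the 5th percentile of -0.09 over 12541 tested genes. The differences were -0.415 (SE 0.0482) for HMX2, place 3 from the bottom, -0.22 (SE 0.0306) for SNAI3, place 81, and -0.132 (SE 0.0242) for FOXD2, place 337. The median gene in this comparison was higher by 0.0233. A member that starts near 1 has little room to rise and much more to fall. The same comparison was therefore also read over the 2625 genes with a control mean of at least 0.85, a minimum set after the members' values were seen. Their median difference was 0 and their 5th percentile -0.133, which leaves FOXD2 at about that percentile and HMX2 and SNAI3 below it.

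**Figure D3:**
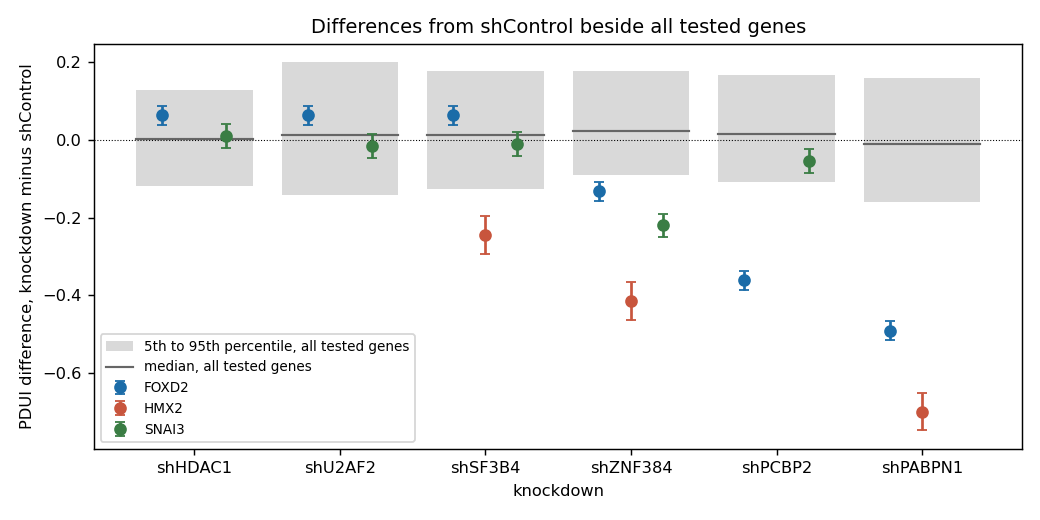
Difference in PDUI, knockdown minus shControl, of each member with a value in both knockdown libraries, with bars of 1 standard error. The grey boxes span the 5th to the 95th percentile and the grey line is the median of all tested genes; HMX2 in shPABPN1 lies lowest, at -0.7, and all 3 members lie under the box in shZNF384.

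A gene was called when its adjusted p in limma's two-sided test was under 0.05, and the members' calls are counted here without being read as support, since their values chose them. In shZNF384 all 3 of 3 tested members were called lower, where 0.0638% of tested genes were called lower and 1.5% in either direction. In shPABPN1 both tested members, FOXD2 and HMX2, were called lower, against 0.725% lower and 4.72% in either direction. In shPCBP2 FOXD2 was called lower and SNAI3 was not, against 0.121% and 1.17%. Of genes with a control mean of at least 0.85, as the members have, larger shares were called lower. These were 0.19% in shZNF384, 1.39% in shPABPN1 and 0.537% in shPCBP2. All these shares include the members, which make up 3 of the 8 genes called lower in shZNF384.

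In shSF3B4 HMX2 was called lower and FOXD2 and SNAI3 were not, against 1.16% lower and 5.42% in either direction. In shHDAC1 and shU2AF2 neither FOXD2 nor SNAI3 was called. The shares of all tested genes there were 0.0243% both for lower calls and for calls in either direction in shHDAC1, and 1.39% and 7.27% in shU2AF2. Of genes with a control mean of at least 0.85, 1.99% were called lower in shSF3B4, 0.116% in shHDAC1 and 2.2% in shU2AF2. No member was called higher. The 6 comparisons share the shControl libraries, so calls of 1 gene in several of them are not separate observations.

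The 3 calls in shZNF384 depended on how the values were fitted. With the libraries centred on their medians no gene was called in that comparison, and with only the compared groups fitted 5 genes and no member were called. Leaving out either shZNF384 library ended the calls of all 3, and a logit scale ended those of FOXD2 and SNAI3. The FOXD2 call there also ended without shControl replicate 2 or 3, and the HMX2 call without replicate 1 or 3. SNAI3 kept its call without replicate 2 and was not tested without replicate 1 or 3. The FOXD2 calls in shPABPN1 and shPCBP2 and the HMX2 call in shPABPN1 held without each shControl library in turn. Yet all 3 ended with only the compared groups fitted, and a logit scale ended that of FOXD2 in shPCBP2. The HMX2 call in shSF3B4 ended without shControl replicate 1 or 3 or either shSF3B4 library, on a logit scale, with centred libraries and with only the compared groups fitted. Without shControl replicate 1, FOXD2 was called higher in shSF3B4 and shU2AF2, each at a difference of 0.09.

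Differences between knockdowns do not use the shControl values. Their standard errors do, since the spread is estimated over all groups of the fit, shControl among them. The differences describe the same knockdown values that were open to the choice of members, and the idea to give them arose after those values were seen. FOXD2 in shPABPN1 was 0.13 below shPCBP2 (difference -0.13, SE 0.0266) and differed from shZNF384 by -0.36 and from each of shHDAC1, shSF3B4 and shU2AF2 by -0.555. HMX2 in shPABPN1 differed from shZNF384 by -0.285 and from shSF3B4 by -0.455 (SE 0.0528), and shSF3B4 was above shZNF384 by 0.17.

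SNAI3 in shHDAC1, shSF3B4, shU2AF2 and shPCBP2 was above shZNF384 by 0.23, 0.21, 0.205 and 0.165 (SE 0.0306). In each of these pairs the libraries did not overlap. FOXD2 in shHDAC1, shSF3B4 and shU2AF2 was above shZNF384 by 0.195, and in shZNF384 it was above shPCBP2, which differed from it by -0.23. The low SNAI3 values of shZNF384 thus stood apart from 4 other knockdowns as well as from the control.

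The relatives of each member are given from lists made with results of these data known. Since 0.0243% to 1.39% of all tested genes were called lower, and 0.0243% to 7.27% in either direction, lists this short with no call or few calls are near the background, and nothing is read from the absence of calls. Of 45 forkhead genes, 26 had a row, and without FOXD2 between 22 and 24 were tested per knockdown. None was called in shHDAC1, shPABPN1, shPCBP2 or shZNF384, where 0.0243%, 4.72%, 1.17% and 1.5% of all tested genes were called. In shSF3B4 FOXK1 rose from 0.403 ± 0.0208 to 0.645 ± 0.0354.

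In shU2AF2 FOXD3, a factor of the neural crest and of pluripotent cells from the same subfamily as FOXD2, rose from 0.67 ± 0.04 to 0.875 ± 0.0354 and FOXP4 rose from 0.0667 to 0.1. FOXC1, a mesenchymal factor, fell there from 0.627 to 0.435 (SD over n = 3 and 2 where given). The list's median difference ran from -0.0167 in shPABPN1 to 0.015 in shPCBP2, against -0.00933 and 0.015 over all tested genes. With the libraries centred the 3 rises and 1 fall became 1 and 1, with only the compared groups fitted 1 and 0, and without shControl replicate 1 they were 3 and 2, with 1 of each in shPABPN1.

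FOXQ1 is named after its values were seen, for a high control level and a fall from it in shPCBP2 and shPABPN1, as in FOXD2. The differences were -0.38 and -0.385, against -0.362 and -0.492 for FOXD2. It stood at 0.96 ± 0.0458 in shControl, 0.575 ± 0.0212 in shPABPN1 and 0.58 ± 0.184 in shPCBP2. Neither difference was called, at adjusted p of 0.143 and 0.26 (limma, Benjamini-Hochberg), and its shPCBP2 libraries differed widely. Unlike FOXD2, which stood at 1 there, FOXQ1 had means below its control in shHDAC1 (0.905), shSF3B4 (0.86) and shU2AF2 (0.75). In shZNF384 its mean was 0.79 ± 0.297.

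Of 48 NK-like homeobox genes, 31 had a row, and without HMX2 between 27 and 30 were tested. EMX1, a factor of the developing cortex, rose in shPABPN1 from 0.327 to 0.485, and EN2, a midbrain and hindbrain factor, rose in shSF3B4 from 0.18 to 0.31. No other relative of HMX2 was called in any knockdown, and none was called lower. Both rises lost their call with centred libraries and with only the compared groups fitted, and without shControl replicate 1 the list had 2 rises and 4 falls. The median of the list was -0.0383 in shPABPN1 and 0.0367 in shZNF384, against -0.00933 and 0.0233 over all tested genes. HMX1 and HMX3 were tested in no comparison.

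Of 11 Snail and other SNAG-domain zinc finger genes, 5 had a row, and the 4 besides SNAI3 were called in no knockdown by limma, with 1 higher and 1 lower of 24 tests at an unadjusted p under 0.05. The other Snail genes are given here as nearest relatives and not for a call. SNAI1, the best known repressor of E-cadherin, stood at 0.59 ± 0.131 in shControl and 0.64 ± 0.325 in shZNF384. SNAI2 stood at 0.48 ± 0.0693 and 0.585 ± 0.163. Both means lay above the control mean in shZNF384, where SNAI3 lay below it, and their libraries spread much more widely than those of SNAI3.

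Of 28 corepressors, kinases and ubiquitin ligases known to act with or on Snail proteins, 25 were tested in every knockdown. CSNK1A1, a kinase that primes proteins for degradation, rose in shPABPN1 from 0.4 to 0.475 and fell in shU2AF2 from 0.4 to 0.305. In shU2AF2 3 genes of the list rose, among them HDAC1 from 0.777 to 1, the ceiling, and HDAC2 from 0.01 to 0.05, near the floor. The LIM protein gene WTIP rose in shZNF384 from 0.07 to 0.12. With the libraries centred none of these 5 rises and 1 fall was called, with only the compared groups fitted 1 rise was, and without shControl replicate 1 there were 6 rises and 3 falls. Of 10 other factors of epithelial-mesenchymal transition 7 had a row, and 0 were called in any knockdown by limma, also with the libraries centred, with only the compared groups fitted and without shControl replicate 1. At an unadjusted p under 0.05, 2 of the 37 tests of these factors were higher and 1 lower.

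**Figure D4:**
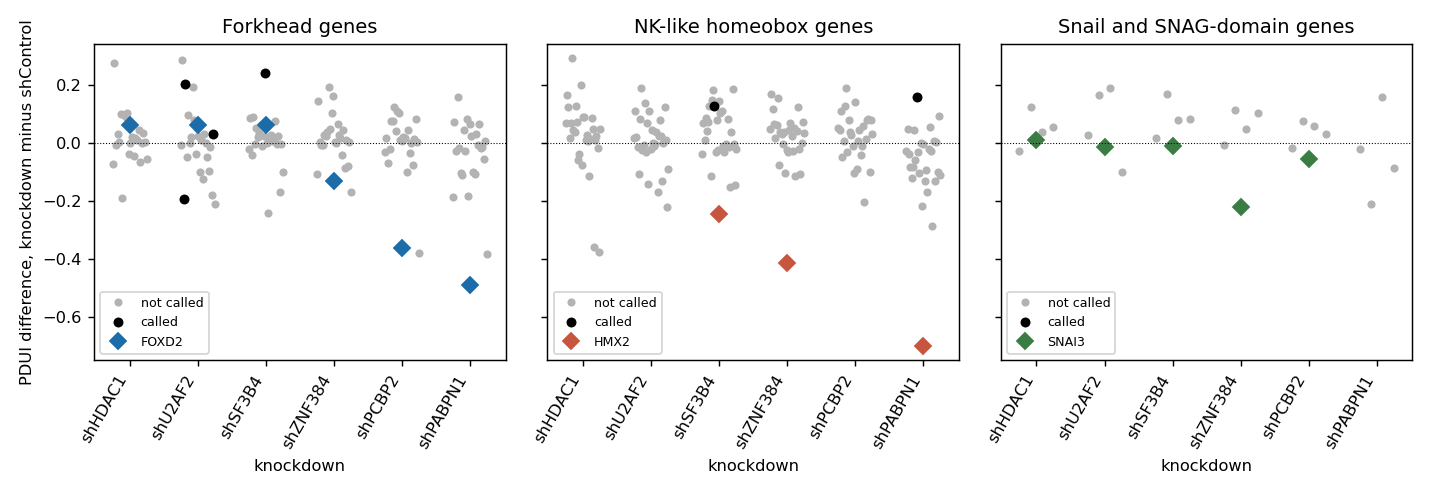
Difference in PDUI, knockdown minus shControl, of the tested forkhead, NK-like homeobox, and Snail and SNAG-domain genes, 1 point per gene, with called relatives in black and the members as coloured diamonds. FOXD2 and HMX2 in shPABPN1 and SNAI3 in shZNF384 lie below all their tested relatives, while in shPCBP2 FOXQ1 lies at -0.38 beside FOXD2 at -0.362.

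The genes around each member were read from a list of 22 neighbours, of which 17 had a row, to see what else ended nearby. Near FOXD2, the divergent noncoding gene FOXD2-AS1, 1.4 kb away, stayed between 0.95 and 1 in all libraries, and CMPK1, a nucleotide kinase gene 57.2 kb away, ran from 0.43 to 0.59. STIL, a centriole gene, ran from 0.54 to 0.79 and TRABD2B from 0.03 to 0.21. These 4 were not called, while SPATA6, 854.7 kb away, ran from 0.36 to 1 over 14 libraries and had 1 call.

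Downstream of HMX2 on the same strand lies BUB3, a spindle checkpoint gene whose start is 3.6 kb from the HMX2 end. Its PDUI was 0.01 to 0.02 in all libraries. Farther away, IKZF5 ran from 0.36 to 0.63 and C10orf88 from 0.52 to 0.93. ACADSB, a mitochondrial dehydrogenase gene 89.8 kb away, rose from 0.513 to 0.74 in shPABPN1, to 0.795 in shSF3B4 and to 0.885 in shU2AF2, while HMX2 in shPABPN1 and shSF3B4 was lower than in shControl.

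The body of SNAI3 is overlapped on the other strand by SNAI3-AS1, none of whose exons covers the last exon of SNAI3. SNAI3-AS1 ran from 0.1 to 0.72 over 11 libraries with a value and was not called; whether reads were counted by strand is not given in the sources used here. MVD, a sterol synthesis gene that is next downstream at 14.5 kb, ran from 0.5 to 0.73. CTU2, CYBA, the mechanosensitive channel gene PIEZO1, ZC3H18 and APRT ran from 0.56 to 0.73, 0.52 to 0.61, 0.73 to 0.96, 0.5 to 0.74 and 0.19 to 0.34.

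Over the 17 neighbours 0 calls were lower and 6 higher, where the background of lower calls was at most 1.39% of tested genes, so that no lower call in so few genes is near it. Higher calls also outnumbered lower ones over all tested genes in the knockdowns concerned. In shPABPN1 490 of 12278 were higher and 89 lower. In shSF3B4 520 of 12195 were higher and 141 lower, and in shU2AF2 727 of 12362 and 172. At an unadjusted p under 0.05 limma gave 12 higher and 5 lower of the neighbours' 99 tests. Besides the 3 of ACADSB the 6 higher calls were SPATA6 in shPABPN1, from 0.627 to 0.975, and the replication licensing gene CDT1, 116.7 kb from SNAI3, from 0.24 to 0.405 in shSF3B4 and to 0.53 in shU2AF2. With only the compared groups fitted 2 of these calls were left, both of CDT1. Without shControl replicate 1 the list gave 6 higher and 2 lower calls.

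The genes whose PDUI moved most like each member over the libraries were ranked by Pearson's r, as a description with no p, over genes with a range of at least 0.2. The libraries share their groups, so the points are not independent. For FOXD2, over 15 libraries and 6419 genes, the nearest were CENPBD1 (r = 0.872), ZMAT2 (0.841) and ANK2 (0.784). CENPBD1 stood at 0.35 to 0.38 in shPABPN1 and 0.37 to 0.54 in shPCBP2, against 0.68 to 1 in shControl, but unlike FOXD2 it was high in shZNF384, at 0.93 to 0.97.

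For HMX2, over 12 libraries and 6083 genes, the nearest were HHEX (0.855), itself an NK-like homeobox gene and a factor of liver and blood development, ZNF852 (0.84) and GALNT12 (0.829). HHEX moved over a narrower range, from 0.6 to 0.65 in shControl to 0.38 to 0.42 in shPABPN1 and 0.51 to 0.52 in shZNF384. Unlike HMX2, it was lower in shU2AF2, at 0.46 to 0.49, than in shZNF384, and it spread from 0.48 to 0.68 in shHDAC1. The single HMX2 library of shU2AF2 stood at 0.72, above both of its shZNF384 libraries. The r between HMX2 and FOXD2 was 0.824, but both were chosen from these same values, so nothing is read from it.

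For SNAI3, over 13 libraries and 6136 genes, the nearest were EBLN2 (0.825), AL513217.1 (0.822) and CEP44 (0.791), and the r with FOXD2 was 0.21. EBLN2 stood at 0.78 to 0.91 in shZNF384 and at 0.88 to 1 in all other libraries. No gene reached an r of 0.9 with any of the 3 members over the libraries. Over the 7 group means the nearest genes were SYTL5 (0.97) for FOXD2, TRPV1 (0.977) for HMX2 and again EBLN2 (0.963) for SNAI3, so the ranking for FOXD2 and HMX2 moved with this choice.

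Missing values limit HMX2 and SNAI3 more than FOXD2. HMX2 lacked 3 and SNAI3 2 of 15 values, whereas 1190 of the 13056 genes, or 9.11%, lacked 2 or more and 826, or 6.33%, lacked 3 or more. Of the 18 pairs of a member and a knockdown, 14 had values enough to be tested. HMX2 had none in shHDAC1, shPCBP2 and shU2AF2, and SNAI3 none in shPABPN1.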

How the data were processed

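PDUI values of 15 HEK293T libraries were taken as the authors deposited them, as a fraction from 0.001 to 1 per transcript and library, without read counts. The build is hg38 per the submitters' processing notes; no aligner, PDUI program or annotation is named (not given in the sources used here). Libraries were grouped by title, and every value column was matched. The shSF3B4 columns were assigned to the group only, because titles and library names number them differently.

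Values entered limma 3.58.1 in R 4.3.3 untransformed. All 7 groups were fitted together, with a trend on the mean and a prior of 1.06 degrees of freedom. A gene without missing entries, such as FOXD2, had 8 residual degrees of freedom, and HMX2 and SNAI3 had fewer. A gene was tested where both knockdown libraries and 2 or more shControl libraries had a value, with Benjamini-Hochberg adjustment over the tested genes of a comparison. The script was tested on simulated data. P-values measure only the spread between these libraries, which may be technical.

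The members and lists were chosen with earlier results of these data known. Named are the members, for each the 3 genes with the highest r, up to 2 called genes per list, knockdown and direction, and the neighbours with a row; SNAI1, SNAI2 and FOXQ1 were added after their values were seen. Of the transcripts, 97.3% were matched to GENCODE 29 by identifier, and hexamers were searched in the 3' UTRs of the matched coding transcripts. Only 7173 of the 12704 matched transcripts had the same version in both, so other annotated ends may also differ from those the authors used. The shares of length, base content and hexamers over all coding transcripts carry this limit. Same-numbered libraries did not deviate together (r of -0.0116 to 0.0451 over 20 pairs), so numbers were not used to pair samples. Alternatives were centring on medians, fitting only the compared groups, a logit scale, no trend, leaving out genes without spread or with missing values, and a replicate block. Each shControl library and each library of the compared knockdown was also left out in turn.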

Additional observations from a re-analysis of the deposited data

How the results depend on the processing

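The members' 14 tested differences kept their direction in all but 3 of 147 recomputed values, while 34 of these values lost the call and 2 gained it. Only a difference called in the main fit could lose a call, so the 34 are not to be read as a share of all 147. Part of this count was fixed in advance, because some settings leave the group means of a member unchanged. These are fitting only the compared groups, no trend, and leaving out genes without spread or with missing values. Counts of called genes moved by over 1.5 times in 36 of 71 recomputed counts, for causes that were not tested. The lists of relatives and neighbours were recomputed in ways chosen after seeing the data.

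With the libraries centred on their medians the genes called numbered 0 in shHDAC1, 362 in shPABPN1, 4 in shPCBP2, 210 in shSF3B4, 391 in shU2AF2 and 0 in shZNF384. SNAI3 in shHDAC1 turned to -0.02, HMX2 in shSF3B4 was -0.273, and in shZNF384 FOXD2, HMX2 and SNAI3 were -0.18, -0.463 and -0.28, all without a call. With only the compared groups fitted the counts were 0 in shPABPN1, 2 in shPCBP2, 186 in shSF3B4, 327 in shU2AF2 and 5 in shZNF384. The differences of FOXD2 and HMX2 in shPABPN1 (-0.492 and -0.7), FOXD2 in shPCBP2 (-0.362), HMX2 in shSF3B4 (-0.245) and FOXD2, HMX2 and SNAI3 in shZNF384 (-0.132, -0.415 and -0.22) stood by construction but were not called.

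On the logit scale, in natural log units, 13 genes were called in shHDAC1, and FOXD2 in shPCBP2 (-2.78), HMX2 in shSF3B4 (-1.58), and FOXD2 and SNAI3 in shZNF384 (-1.66 and -3.03) lost their calls. Without genes that have no spread in any group 0 were called in shHDAC1 and 120 in shZNF384, where FOXD2 (-0.132) lost its call; without the trend 120 were called in shZNF384. With a replicate block, which leaves out shSF3B4, 6 genes were called in shHDAC1, 232 in shPABPN1, 7 in shPCBP2, 531 in shU2AF2 and 3 in shZNF384. Under that block HMX2 in shPABPN1 (-0.68) and FOXD2, HMX2 and SNAI3 in shZNF384 (-0.15, -0.395 and -0.207) lost their calls.

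Leaving out each library in turn gave 4 to 51 called genes in shHDAC1, 343 to 1048 in shPABPN1, 46 to 119 in shPCBP2, 429 to 536 in shSF3B4, 573 to 788 in shU2AF2 and 22 to 140 in shZNF384. The highest shPABPN1 count was without shControl replicate 1, where 519 genes rose and 529 fell, against 490 and 89 with it. The differences that follow were also recomputed without each library of the compared knockdown. FOXD2 ran from 0.045 to 0.09 in shSF3B4 and shU2AF2 and from -0.15 to -0.105 in shZNF384. HMX2 ran from -0.28 to -0.225 in shSF3B4 and from -0.45 to -0.395 in shZNF384, and SNAI3 from -0.1 to -0.01 in shPCBP2, from -0.03 to 0.01 in shSF3B4, from -0.04 to 0.01 in shU2AF2 and from -0.23 to -0.21 in shZNF384. SNAI3 had no value without shControl replicate 1 or 3, and HMX2 and SNAI3 none among genes complete in all libraries.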
